A study of Rattus norvegicus with 20 samples.

Results

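Adipose tissue of rats given, for 1 month, 5% less food than the daily intake recorded in freely fed rats (5% CR) was compared with that of rats given the full recorded intake for the same time (control). This is the mildest restriction of the study at its longer duration. The comparison used the 4 of 20 chips whose titles name these groups, 2 of the 5% CR pool and 2 of the control pool. Male Wistar rats, an outbred laboratory strain, were 6 weeks of age when the feeding began. Both groups were kept singly on the same powdered AIN-93G diet, fasted for 16 h before the end, and had visceral white fat removed. The study also restricted rats by 10%, 20% or 30%, and ran all levels for 1 week as well. RNA of 5 rats was pooled for each group and the labelled RNA of a pool was divided over 2 Affymetrix rat chips. Repeat chips thus show only technical spread, each group is 1 pool, and no test of the condition at 1 month alone exists.

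White fat stores triglyceride after meals and releases fatty acids between meals, and visceral fat also holds blood vessels, macrophages, lymphoid tissue and a mesothelial covering. Its adipocytes run a circadian clock in which CLOCK and its partner drive genes through E-box elements, and their products, among them period, cryptochrome and REV-ERB repressors, act back on the drive. The PAR bZIP factors DBP, TEF and HLF carry the rhythm onward by binding D-box elements. Feeding time sets the phase of this clock in peripheral tissues.

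Values are MAS5 signals, in array units, and are compared only within a probe set. Each gene stands as the probe set of highest mean signal, and a difference is 5% CR minus control in log2 signal, averaged over the same-numbered chips, with ± giving the SD of those 2 chip differences. That SD is technical and holds no spread between rats. Across 9520 tested probe sets the repeat chips correlated at 0.975 in the 5% CR pool and 0.978 in the control pool, and their median absolute log2 difference was 0.18 in the 5% CR pool and 0.17 in the control pool. A probe set was called where both 5% CR chips lay on one side of both control chips and the pools differed by at least 1.5-fold. By this rule 231 probe sets (2.43%) were higher and 309 (3.25%) were lower in the 5% CR pool, 540 (5.67%) in all. Counted by gene, 157 of 7113 (2.21%) were higher and 227 (3.19%) were lower, and the median difference of all tested genes was -0.014. Among the called genes 45 had further tested probe sets, which all had the same sign in 34. Calls were most frequent at low signal, with 3.78% higher and 6.85% lower among probe sets of 8.4 to 49.2 units, and 2.14% higher and 1.26% lower among those of 195.7 to 6749.9 units.

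**Figure D1:**
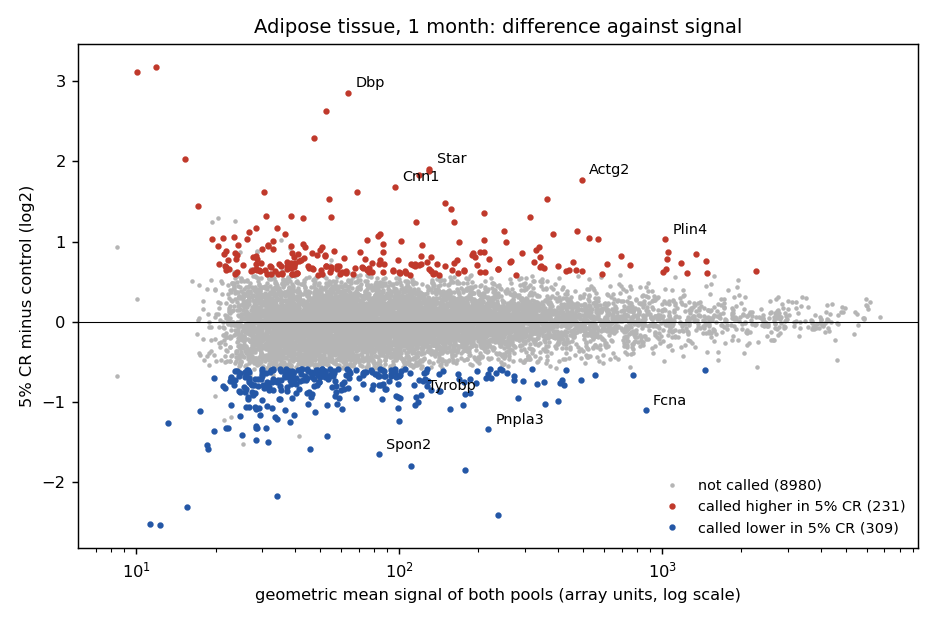
Each point is 1 of 9520 probe sets. The horizontal axis is the geometric mean signal of the 5% CR and control pools (array units, log scale) and the vertical axis is 5% CR minus control in log2 signal, with the 231 probe sets called higher in red and the 309 called lower in blue. Dbp and Actg2 stand out above and Pnpla3 and Fcna below at signals where most probe sets lie near 0.

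The tissue label was checked against adipocyte markers. All 11 tested adipocyte genes, which include Lep, Plin1, Fabp4 and Pparg, lay above 0, and the mean log2 signal of the list was 10.27 in the 5% CR pool and 10.00 in the control pool. Lymphocyte markers were near equal, with a mean log2 signal of 7.03 in the 5% CR pool and 7.04 in the control pool and summed signals of 3572.0 and 3416.9 on the 5% CR chips against 3193.8 and 3529.5 on the control chips. Exocrine pancreas genes were low in both pools, at a mean log2 signal of 2.57 in the 5% CR pool and 2.74 in the control pool, with 13 of 17 under the signal filter. In bulk tissue, fewer cells of a type and less RNA per cell cannot be told apart.

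The list of highest median held the repressors and output factors of the circadian clock. All 11 tested genes lay above 0, 8 were called higher and none lower, and the median difference was 1.02. Promoters of the called clock genes are shown because E-boxes and D-boxes are the elements through which the clock acts on its own members. RefSeq starts on the rat assembly GRCr8 were matched for all 8 called genes, in 9 windows of 250 bases before a start. The E-box searched was CACGTG, which reads the same on both strands and was present in 5.59% of all 33469 promoter windows of that length. The D-box searched was TTATGTAA on either strand, present in 0.828%. An E-box was found for 3 of the 8 genes and a D-box for 1, and these windows follow, 5′ to 3′ on the strand of the gene, with the matched element in capitals. The Tef window is chr7:115206577-115206826 on the plus strand, before a start inside the span of the gene. The Nr1d1 window is chr10:84229455-84229704 on the minus strand, also before an internal start, while the window before its outermost start held neither element. For Per2 the 174 bases outside the gene span are given, chr9:99497070-99497243 on the minus strand. The Bhlhe41 element lies within the span of the gene, so 30 bases around it are given, chr4:180569386-180569415 on the minus strand.
Tef: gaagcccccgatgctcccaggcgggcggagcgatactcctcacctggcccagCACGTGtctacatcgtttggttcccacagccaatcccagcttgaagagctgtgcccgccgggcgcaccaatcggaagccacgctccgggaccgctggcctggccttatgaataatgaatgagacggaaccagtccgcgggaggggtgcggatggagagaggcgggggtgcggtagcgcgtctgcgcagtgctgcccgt
Nr1d1: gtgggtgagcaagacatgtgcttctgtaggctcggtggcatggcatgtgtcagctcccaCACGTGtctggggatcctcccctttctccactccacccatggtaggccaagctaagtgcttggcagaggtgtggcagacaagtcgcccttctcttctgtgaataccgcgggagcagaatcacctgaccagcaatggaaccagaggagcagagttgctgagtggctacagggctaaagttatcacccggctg
Per2: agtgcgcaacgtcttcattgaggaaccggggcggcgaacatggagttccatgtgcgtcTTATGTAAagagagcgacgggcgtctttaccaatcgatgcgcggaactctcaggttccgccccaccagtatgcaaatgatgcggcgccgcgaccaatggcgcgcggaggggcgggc
Bhlhe41: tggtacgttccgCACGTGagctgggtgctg
A match of letters is a description of the window. The windows of Dbp, Nr1d2, Cry2 and Usp2 held neither string, which says nothing about elements elsewhere.

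Dbp, a PAR bZIP activator at the output of the clock, had signals of 174.5 and 169.6 on the 5% CR chips against 24.3 and 23.2 on the control chips. The pools were far apart and the repeat chips close together, and the difference was 2.86 ± 0.02, or 7.25-fold. Tef, of the same family and with the E-box shown above, gave 42.0 and 20.7 on the 5% CR chips against 11.6 and 0.8 on the control chips. Its pools did not overlap, but all 4 signals were low and the difference of 3.11 ± 1.78 rests on a control chip under the floor of 1. Hlf, the other member of the family, was not called, with 38.9 and 41.0 against 25.4 and 37.6 in control.

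Among the repressors, Nr1d2 (REV-ERB beta) had 160.9 and 198.0 on the 5% CR chips against 74.0 and 76.9 on the control chips, a difference of 1.24 ± 0.17. Per2, whose window holds the D-box, had 97.0 and 77.1 in 5% CR against 36.0 and 34.1 in control (1.3 ± 0.18). Bhlhe41 (DEC2), with an E-box close to its start, had 106.6 and 107.8 against 47.2 and 59.5 in control (1.02 ± 0.22). In these 3 genes each 5% CR chip exceeded both control chips by a wide margin. Nr1d1 (REV-ERB alpha) was higher by 0.83 ± 0.01 and Cry2, a cryptochrome, by 0.70 ± 0.09, and both had under 100 units on every chip. Usp2, a ubiquitin protease whose transcript cycles, gave 43.2 and 21.8 against 13.1 and 17.0 in control, so one of its 5% CR chips was only just above the control range. Per1 had signals of 44.4 and 50.1 in 5% CR, which lay inside the range of the control chips (35.2 and 53.9), and was not called. Clock, the only activator that passed the signal filter, was lower, with 67.7 and 70.3 on the 5% CR chips against 106.3 and 115.5 on the control chips (-0.68 ± 0.05).

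The genes with the widest separation of chips outside the clock and smooth muscle lists included receptors and mitochondrial proteins. Gabbr1, a subunit of the GABA-B receptor, had 261.0 and 237.1 in 5% CR against 64.3 and 70.6 in control (1.88 ± 0.19). Hrh3, the histamine H3 receptor, had 117.3 and 93.8 against 28.1 and 16.3 in control (2.29 ± 0.33). Both receptors were well above the control range, while the other 13 tested genes of the receptor list in which they were placed were not called. That list was drawn up with earlier results of these data known. Star, which carries cholesterol into mitochondria, reached 268.1 and 237.7 in 5% CR against 73.9 and 61.0 in control (1.91 ± 0.07). Coq8a, which takes part in coenzyme Q synthesis, reached 354.7 and 317.0 against 126.0 and 136.2 in control (1.36 ± 0.19). F3, the tissue factor that starts coagulation, had 365.6 and 373.7 against 170.8 and 166.0 in control (1.13 ± 0.05). In all of these the chips of a pool differed less than the pools, which follows from choosing genes by the separation of their chips.

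**Figure D2:**
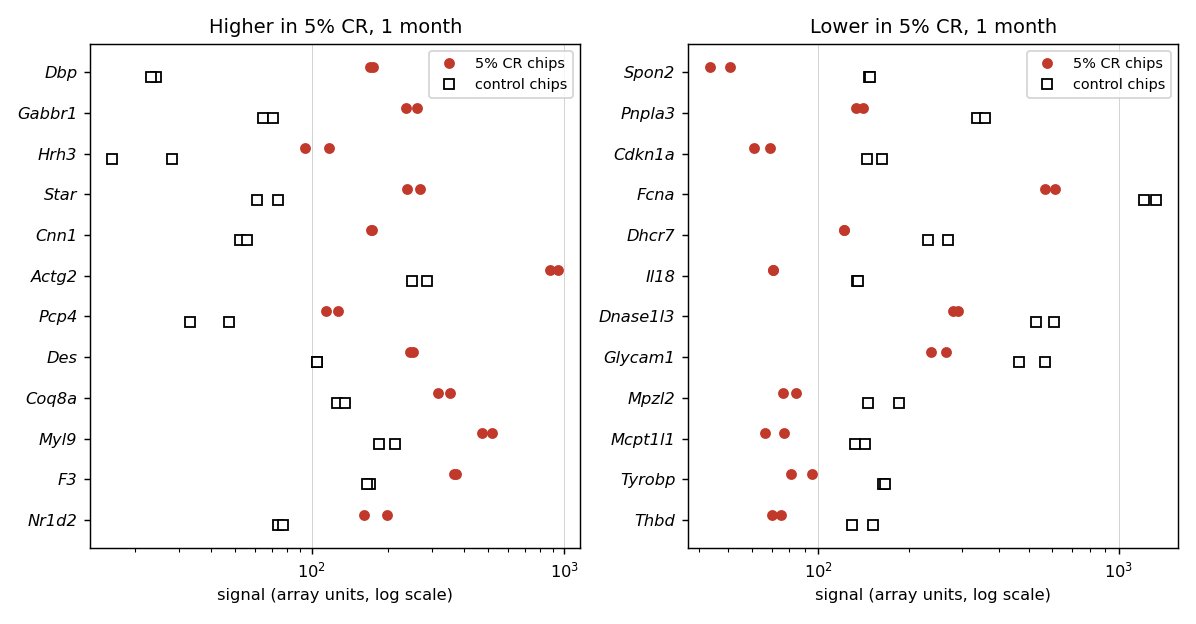
Signals of the single chips (array units, log scale) for the 12 genes called higher (left) and the 12 called lower (right) with the widest separation, among genes reaching a signal of 100 in a pool. Filled circles are the 5% CR chips and open squares the control chips. The pools do not overlap, which follows from this choice of genes.

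Among genes of fatty acid oxidation few were called. All 20 tested genes of mitochondrial beta-oxidation lay above 0 with a median of 0.26, but 1 was called, Cpt2, which releases acyl groups inside the mitochondrion (217.4 and 224.8 in 5% CR against 147.3 and 134.7 in control, 0.65 ± 0.13). Ehhadh, the bifunctional enzyme of peroxisomal beta-oxidation, had 71.3 and 63.3 against 30.4 and 24.6 in control (1.3 ± 0.09) and was the only one of 12 peroxisomal genes called. Of all tested genes 3404 of 7113 lay above 0, and most sizes in the mitochondrial list were below the call threshold. Oxidative phosphorylation (29 of 35 above 0, median 0.15) and the tricarboxylic acid cycle (15 of 19 above 0, median 0.10) had no called gene.

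Triglyceride synthesis had a median of 0.33, with 3 of 11 genes called higher and none lower. Agpat2, which adds the second acyl chain, had 1451.0 and 1601.1 in 5% CR against 920.4 and 917.5 in control (0.73 ± 0.10). Dgat1, which completes the triglyceride, had 812.7 and 778.2 against 476.1 and 487.2 in control (0.72 ± 0.07). Acsl1, the acyl-CoA synthetase, differed by 0.63 ± 0.01. Genes of lipolysis and of the lipid droplet surface were also called higher, 3 of 17 with none lower and a median of 0.14. Plin4, a droplet coat protein, had 1556.3 and 1377.6 in 5% CR against 707.0 and 725.7 in control (1.03 ± 0.15). Pde3b, the phosphodiesterase through which insulin restrains lipolysis, had 254.1 and 253.1 against 154.8 and 154.7 in control (0.71 ± 0.00). Lipe, hormone-sensitive lipase, differed by 0.61 ± 0.10, and Pnpla2, adipose triglyceride lipase, by 0.58 ± 0.13, just short of a call.

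Among fatty acid uptake genes 2 of 14 were called, both higher. Slc27a1, a fatty acid transport protein, had 714.8 and 797.7 against 347.6 and 386.3 in control (1.04 ± 0.00), and Gpihbp1, which holds lipoprotein lipase on capillaries, had 437.1 and 465.2 against 270.7 and 217.2 in control (0.90 ± 0.29). Pparg, the nuclear receptor that directs adipocyte genes, had 581.2 and 590.4 in 5% CR against 378.9 and 368.8 in control (0.65 ± 0.04). It was the only factor called higher of the 19 adipocyte transcription factors and nuclear receptors, and Klf4 was called lower (-0.74 ± 0.29). The pyruvate dehydrogenase kinases Pdk2 (0.84 ± 0.30) and Pdk4 (0.61 ± 0.07), which restrain glucose oxidation, were both called higher. The adipocyte markers, which share Pparg and Lipe with these lists, had a median of 0.20, and their part in the lipid results was not tested.

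Lipogenic genes split. Pnpla3, a droplet acyltransferase or lipase that rises with feeding, had 140.4 and 133.2 in 5% CR against 336.9 and 357.1 in control (-1.34 ± 0.11), one of the widest separations among genes lower in 5% CR. Fads1, the delta-5 desaturase, had 73.1 and 101.4 against 158.2 and 141.0 in control (-0.79 ± 0.45). The other 16 genes of fatty acid synthesis were not called, Fasn at 0.22 ± 0.05 and Acaca at 0.43 ± 0.05 among them, and the list had a median of 0.13. Cholesterol synthesis lay lower, with 13 of 18 genes below 0, a median of -0.31 and 2 called. These were Dhcr7, the last enzyme of the pathway (121.4 and 121.7 in 5% CR against 270.4 and 231.5 in control, -1.04 ± 0.16), and Msmo1 (-0.60 ± 0.34).

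**Figure D3:**
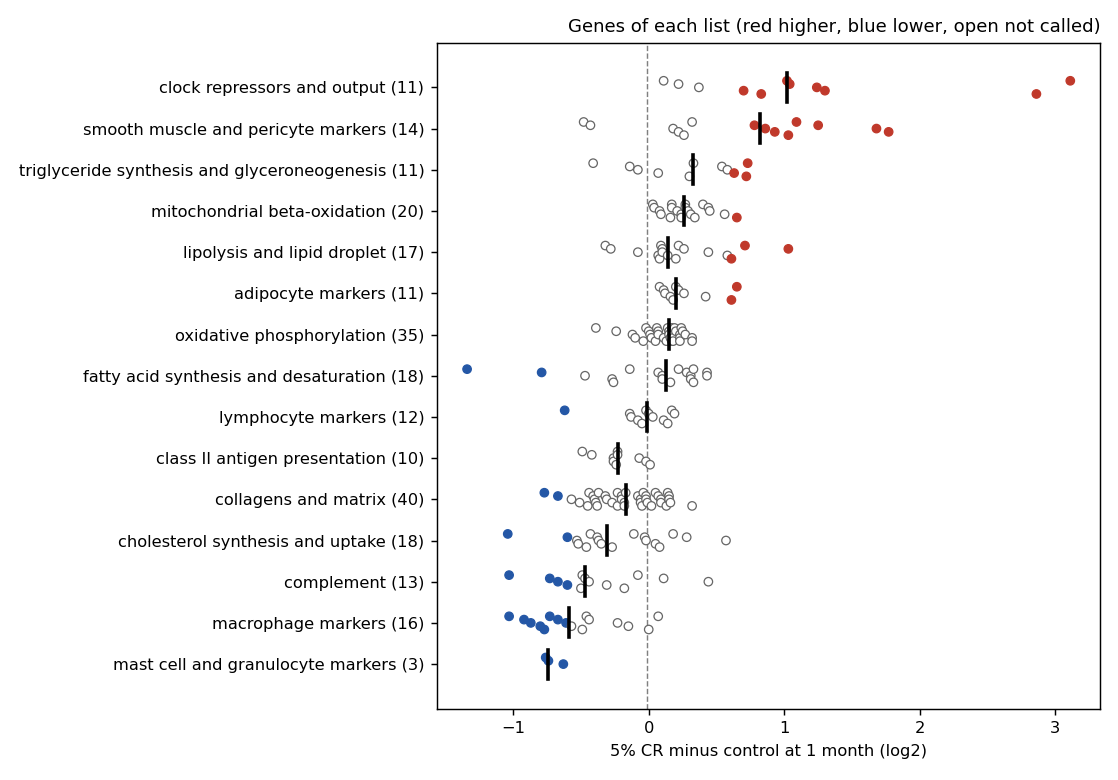
Difference of 5% CR minus control at 1 month (log2) for every tested gene of 15 lists, with the number tested in brackets. Red genes were called higher and blue genes lower, open genes were not called, black bars are list medians, and the dashed line is the median of all tested genes. Clock repressors and output and smooth muscle markers extend to the right, and macrophage, complement and mast cell genes to the left.

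Contractile genes of smooth muscle formed the other large group of higher genes. Of 14 smooth muscle and pericyte markers 8 were called higher and none lower, with a median of 0.82. Actg2, the enteric smooth muscle actin, had 946.0 and 881.9 in 5% CR against 287.4 and 248.8 in control (1.77 ± 0.08). Cnn1, the actin-binding calponin, had 174.1 and 171.9 against 52.0 and 55.7 in control (1.68 ± 0.08). Myh11, the smooth muscle myosin heavy chain, had 552.0 and 571.0 against 268.2 and 258.7 in control (1.09 ± 0.07). The called genes also held Des, desmin (1.25 ± 0.03), Mylk, myosin light chain kinase (1.03 ± 0.02), Tagln (0.93 ± 0.06), Synpo2 (0.86 ± 0.06) and Pdgfrb (0.78 ± 0.60). Outside the list Myl9 (1.31 ± 0.05), Tpm2 (1.13 ± 0.34) and Hspb6 (1.07 ± 0.24), which smooth muscle also expresses, were called higher. They were picked from the lists of actin cytoskeleton, tropomyosins and tubulins, and chaperones, whose medians were -0.07, 0.06 and -0.04. The marker list was uneven, since Acta2, the vascular smooth muscle actin, differed by 0.18 ± 0.02, Smtn by -0.43 ± 0.02 and Notch3 by -0.48. The summed signal of the 14 markers was 4157.6 and 3880.9 on the 5% CR chips against 2094.1 and 1927.2 on the control chips, which did not overlap. The part of smooth muscle content in these differences was not tested.

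Of 16 macrophage markers 8 were called lower and none higher, 15 lay below 0, and the median was -0.59. Tyrobp, the DAP12 adapter, had 80.8 and 95 in 5% CR against 164.0 and 166.9 in control (-0.92 ± 0.15). Aif1 had 104.2 and 106.3 against 205.2 and 180.2 in control (-0.87 ± 0.15). Cd68, a lysosomal glycoprotein of macrophages, had 96.1 and 97.3 against 162.3 and 174.4 in control (-0.80 ± 0.06). In each of the 3 the chips of the pools were well apart. Summed over the list, signals were 6450.9 and 6494.6 on the 5% CR chips against 8332.5 and 9494.8 on the control chips. Fcgr2b (0.07 ± 0.04) and Lgals3 did not follow, and Lyz2, a macrophage lysozyme, missed a call at -0.57 ± 0.24.

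Complement genes had a median of -0.47, with 4 of 13 called lower. C1qa (-0.67 ± 0.12) and C1qb (-0.73 ± 0.02), which macrophages make and which stand on the macrophage list too, were among them, together with C3, the central component (-1.03 ± 0.10), and Clu (-0.60 ± 0.02). Fcna, ficolin A, a lectin that starts the complement cascade, had 612.5 and 567.2 in 5% CR against 1206.9 and 1329.8 in control (-1.10 ± 0.18). Il18, an inflammatory cytokine, had 70.4 and 70.6 against 133.9 and 135.2 in control (-0.93 ± 0.01). Hmox1, haem oxygenase, which is abundant in macrophages, differed by -1.0 ± 0.04. It was picked from the list of antioxidant enzymes, whose median was 0.02 and whose other called gene, Gsr, was higher (0.69 ± 0.00). The part of macrophage content in the lower genes of this paragraph was not tested. Class II antigen presentation had no called gene and a median of -0.23, and no interferon response gene was called.

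The 3 tested mast cell genes were all lower, Cpa3 (122.6 and 148.8 in 5% CR against 217.3 and 239.2 in control, -0.76 ± 0.10), Cma1 (-0.74 ± 0.23) and Tpsb2 (-0.63 ± 0.42), as was Mcpt1l1, a mast cell protease gene outside that list (-0.95 ± 0.22). Of 12 lymphocyte markers 1 was called, Cd4 (-0.62 ± 0.08), which rat macrophages also carry, and the list median was -0.01. Glycam1, a ligand of L-selectin made by the high endothelial venules of lymph nodes, was lower nevertheless, with 265.9 and 237.7 in 5% CR against 464.0 and 567.8 in control (-1.03 ± 0.32). Dnase1l3, a nuclease of macrophages and dendritic cells, was lower by a like amount (-0.98 ± 0.17). Against the same control pool the lymphocyte list had medians of -3.61 at 10% and -3.59 at 20% restriction for 1 month. In those pools Glycam1 differed by -4.84 and -4.39, Dnase1l3 by -2.47 and -2.67, and Il18 by -2.05 and -2.05. The part of lymphoid content in these 3 genes was not tested. Mesothelial markers were lower in 2 of 7 genes, Krt18 (-0.95 ± 0.20) and Msln (-0.73 ± 0.36).

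The remaining genes lower in 5% CR included Spon2, a secreted matrix protein, with 50.6 and 43.7 against 147.0 and 148.9 in control (-1.65 ± 0.16). Cdkn1a, the cell cycle inhibitor p21, had 69.1 and 61.0 against 144.8 and 162.9 in control (-1.24 ± 0.25), and no other cell cycle gene of 24 was called. Mpzl2 (-1.04 ± 0.14), an adhesion protein, and Thbd, thrombomodulin of the vessel wall (-0.95 ± 0.10), were also among the widest separated. Collagen and matrix genes lay below 0 in 29 of 40 with a median of -0.17, and 2 were called, Col1a2 (651.2 and 582.7 in 5% CR against 1020.8 and 942.6 in control, -0.67 ± 0.03) and Lox, the cross-linking oxidase (-0.77 ± 0.44). Of the chaperones Hsph1 (-0.71 ± 0.28) and Chordc1 (-0.72 ± 0.21), partners of HSP70 and HSP90, were lower, while the median of 27 chaperone genes was -0.04. In insulin and IGF signalling the calls went both ways. Cish was higher (52.1 and 42.1 in 5% CR against 17.8 and 30.5 in control, 1.01 ± 0.77). Pik3r1 (15.1 and 25.8 in 5% CR against 49.5 and 49.1 in control, -1.32 ± 0.55) and Igfbp3 (-0.66 ± 0.02) were lower. The signals of Cish and Pik3r1 were low on every chip. Ribosomal proteins, glycolysis, branched-chain amino acid catabolism and endoplasmic reticulum folding had no called gene and medians of 0.02, 0.12, 0.12 and -0.09.

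The study named top genes of adipose tissue and genes commonly changed across its tissues, and these were joined here into a list. The data behind that list include these chips, so it is no independent evidence of direction. Its adipose genes were Dbp, Gabbr1, Star, Coq8a, Slpi, Dnase1l3, Mpeg1, Dhcr7 and Tubb2a. The study chose them for changing the same way at every level of restriction in adipose tissue, this comparison included. Their direction here was therefore set beforehand. Of the 24 tested genes of the joined list 9 were called higher and 6 lower. Besides those already given, Nampt, which makes a precursor of NAD, had 211.1 and 205.6 in 5% CR against 133.1 and 118.1 in control (0.73 ± 0.10). Glul, glutamine synthetase, had 2049.5 and 1769.0 against 1117.7 and 1142.0 in control (0.75 ± 0.17). Ephx1, epoxide hydrolase (0.87 ± 0.25), and Akr1c14 (0.63 ± 0.31) were also called higher, and Tubb2a, a tubulin (-0.95 ± 0.38), Mpeg1 (-0.77 ± 0.05) and Cmtm6 (-0.70 ± 0.02) lower. Not called were Cd36 (0.12 ± 0.16), Sult1a1 (0.13 ± 0.13), Fmo1 (-0.40 ± 0.35), Cyp51 (-0.37 ± 0.04), Slpi (-0.30 ± 0.11), Actg1 (-0.08 ± 0.12), Tubb4b (-0.51 ± 0.05), Tpm4 (-0.19 ± 0.04) and S1pr1 (-0.10 ± 0.03). The study's rule was another, MAS5 change calls with no fold minimum. By that rule it reported Slpi and Tubb4b as lower in this same comparison, and it did not mark Akr1c14 there. It also marked Hsp90aa1 as lower there, a gene that is not among the 24 tested.

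The same restriction for 1 week was measured in other rats, in pools that share nothing with those of 1 month. Of the 231 probe sets higher at 1 month 158 (68.4%) were above 0 at 1 week, against 54.1% of all tested probe sets, and 62 (26.8%) were also higher by 1.5-fold, against 4.8% of all. With the second chips of both durations left out and the call made on 1 difference, the share above 0 was 56.2%. Of the 309 lower probe sets 149 (48.2%) were below 0 at 1 week, against 45.9% of all tested, so their sign at 1 week was close to the background. The 36 that were also lower by 1.5-fold made up 11.7%, against 4.5% of all. Among probe sets reaching a signal of 100 in a pool, 52 of the 94 lower ones (55.3%) were below 0 at 1 week, against 46.2%. By 1.5-fold 18.1% of them were lower, against 3.6%. Of the 109 higher ones at that signal 76.1% were above 0 at 1 week, against 53.8%. The clock list had a median of 0.86 at 1 week, where all 8 genes called at 1 month lay above 0 (Dbp at 2.64) and Per1, not called at 1 month, lay at -0.28. The smooth muscle list had a median of -0.51 at 1 week, and Actg2 differed by -0.81. The macrophage list had a median of -0.28, the lymphocyte list -0.78 and the class II list -0.61, and the part of lymphoid content in the values of 1 week was not tested. The control pool of 1 week carried exocrine pancreas RNA, on which that list had a median of -8.54, and Pnlip and Cela1 at that time are read against it.

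**Figure D4:**
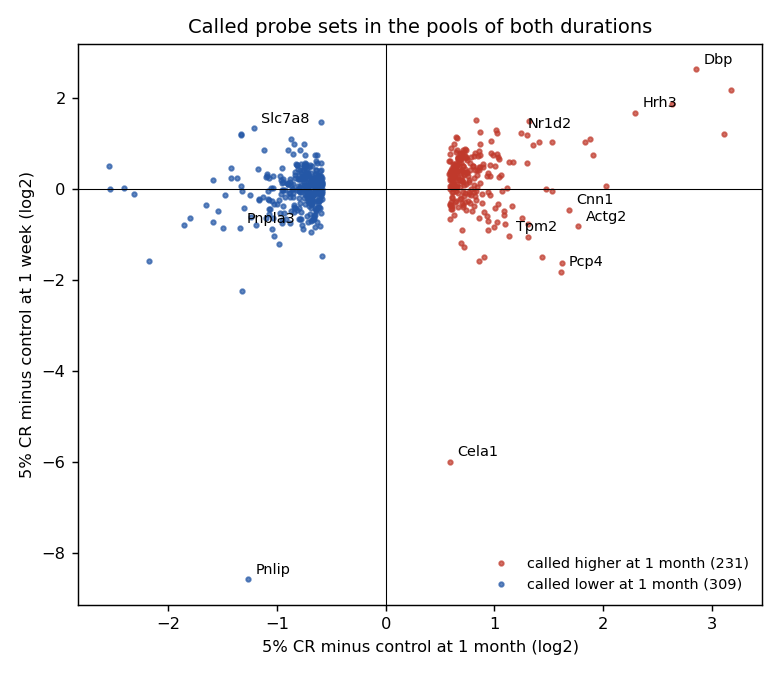
Each point is a probe set called at 1 month, with 5% CR minus control at 1 month (log2) on the horizontal axis and the same difference in the pools of 1 week (log2) on the vertical axis. Red points were called higher and blue points lower at 1 month. Dbp and Hrh3 lie in the upper right, Actg2, Cnn1 and Pcp4 lie below 0 at 1 week, and Pnlip and Cela1 are pancreas genes.

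What both durations shared was tested with limma over all 10 pools, with restriction level and duration as additive factors and the contrast 5% minus control, which has 4 residual degrees of freedom and says nothing of 1 month alone. Of 9520 probe sets 24 (0.252%) were higher and 3 (0.0315%) lower at an adjusted p of 0.05, and 25 of these 27 were called in the same direction at 1 month. The fit includes the pools of 1 month that made those calls, so this overlap is no independent evidence. Dbp was higher by 2.75 ± 0.25 (SE, adjusted p = 0.00681 by limma), Hrh3 by 1.99 ± 0.21 (adjusted p = 0.0149) and Gabbr1 by 1.5 ± 0.20 (adjusted p = 0.0291). In the same fit by limma, Nr1d2 (1.24 ± 0.18, adjusted p = 0.0376), Ehhadh (1.25 ± 0.16, adjusted p = 0.0233), Coq8a (1.17 ± 0.16, adjusted p = 0.0354) and Bnip3, a mitophagy receptor (0.75 ± 0.09, adjusted p = 0.0216), also rose. Pnpla3 (-1.10 ± 0.15, adjusted p = 0.0291), Tubb2a (-0.82 ± 0.13, adjusted p = 0.0476) and Hsph1 (-0.72 ± 0.11, adjusted p = 0.0471) fell by limma. The count was 9 with the first chips left out and 14 with the second left out, and 8 without the 2 pools of 1 week that hold pancreas RNA. It was 3 without the intensity trend, which ends most of these calls, and 160 with the replicate block on chips.

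Within 1 month the other levels were set against the same control pool, so their differences are given side by side and share whatever is particular to it. Dbp differed by 2.86 at 5%, 3.07 at 10%, 2.84 at 20% and 1.83 at 30%. Pnpla3 differed by -1.34 at 5%, -1.07 at 10%, -0.92 at 20% and -1.41 at 30%. Plin4 differed by 1.03 at 5%, 1.39 at 10%, 1.01 at 20% and 0.29 at 30%, so the mildest restriction lay in the range of the stronger ones for all 3. Mitochondrial beta-oxidation had a median of 0.26 at 5%, 0.64 at 10%, 0.57 at 20% and 0.62 at 30%. Actg2 was high in the 5% and 20% pools, by 1.77 and 1.67, with -0.49 at 10% and 0.29 at 30%, so its level did not follow the order of restriction. The lymphocyte list had medians of -0.01 at 5%, -3.61 at 10%, -3.59 at 20% and -1.02 at 30%, so only the 5% pool was near the control in lymphocyte signal. Cd3e, a T cell receptor subunit, had 107.6 and 94.3 in 5% CR against 116.2 and 97.1 in control.

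**Figure D5:**
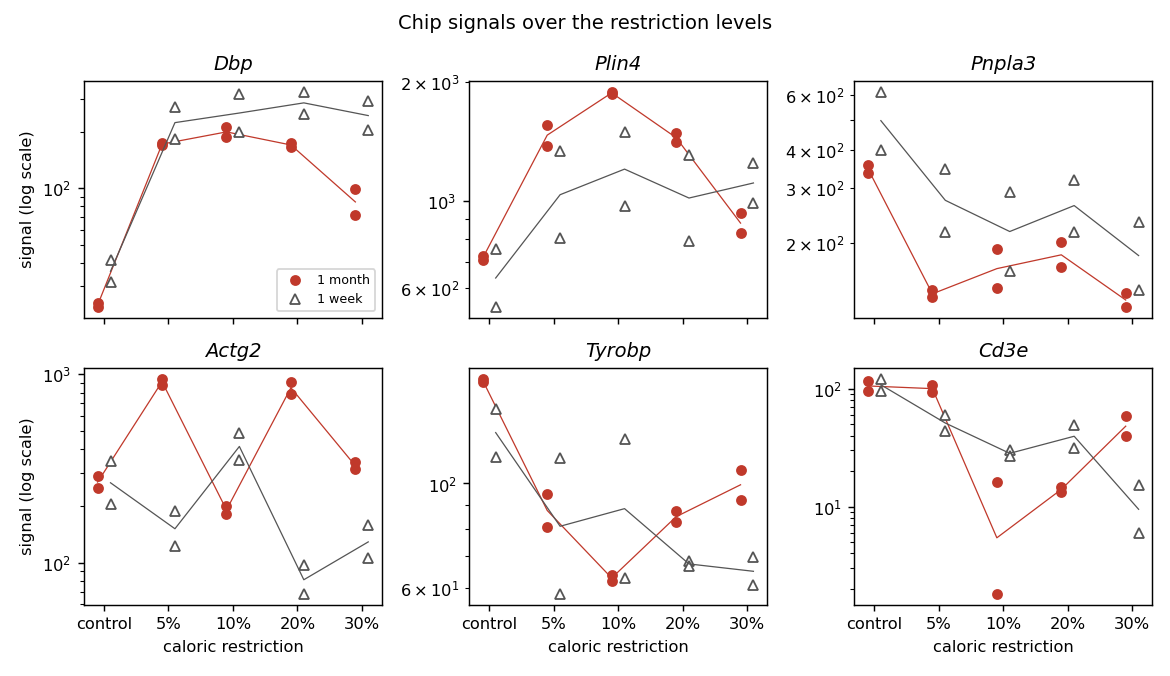
Signals of single chips (array units, log scale) over the restriction levels at 1 month (filled circles) and 1 week (open triangles), with lines through the pool means. Dbp is at 174.5 and 169.6 in 5% CR against 24.3 and 23.2 in control at 1 month, Actg2 is high in the 5% and 20% pools of 1 month, and Cd3e is near equal in the 5% and control pools of 1 month.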

How the data were processed

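Adipose RNA pools of 5 rats were hybridised to 20 chips, 2 for each of 10 pools. The intensity values deposited by the authors are MAS5 signals on a linear scale, and MAS5 is named in the submitters' processing notes. The trimmed mean signal (trim 0.02) was 97.7 and 97.5 on the first and second chips of both pools compared, and 77.2 and 110.9 at 1 week, so chip sets were scaled apart before deposit. Of 15923 probe sets 57 array controls were left out. The platform table gave 1 symbol for 12783, several for 312 and none for 2771 of the 15866 analysed, and 12774 symbols were matched to the GRCr8 gene table. Signals under 1 were set to 1, and the 40% of probe sets with the lowest mean log2 signal were left out (limit 22.8 units), leaving 9520 to be tested. Differences and calls were computed with Python 3.11.15, and the additive fit with limma 3.58.1 in R 4.3.3 on pool means (eBayes with an intensity trend, two-sided, Benjamini-Hochberg). The number of arrays limits the precision. Both steps were run on simulated data with planted changes. The simulation of the calls held chip noise but no spread between pools. That of the fit held no effect of duration or of the other levels. Neither shows how the results would repeat in other rats.

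Named genes were the 12 higher and 12 lower called genes with a pool mean of at least 100 and the widest separation of chips. Added to these were up to 4 called genes of each list (or the 2 of largest difference) and the joined list of genes named by the study. Up to 6 genes each way past the threshold over both durations were also named. A few further list members were named after their values were seen. Members and lists were chosen with earlier results of these data known. Alternatives were other scalings, filters, fold minimums and a pseudocount of 16, each chip number left out, and the replicate block.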

Additional observations from a re-analysis of the deposited data

Results flagged for a closer look

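Of the named genes 18 were called at 1 month while both same-numbered chip differences at 1 week had the opposite sign, and the difference between the durations was not tested in any of them. Contractile genes of smooth muscle made up the largest set: Actg2 (1.77 at 1 month, -0.81 at 1 week), Cnn1 (1.68 at 1 month, -0.45 at 1 week), Pcp4 (1.61 at 1 month, -1.81 at 1 week), Des (1.25 at 1 month, -0.62 at 1 week), Myl9 (1.31 at 1 month, -0.77 at 1 week), Tpm2 (1.13 at 1 month, -1.03 at 1 week), Myh11 (1.09 at 1 month, -0.57 at 1 week) and Tagln (0.93 at 1 month, -0.58 at 1 week), Pcp4 being a calmodulin-binding peptide outside the smooth muscle list. Mast cell genes were lower at 1 month and above 0 at 1 week: Mcpt1l1 (-0.95 at 1 month, 0.22 at 1 week), Cma1 (-0.74 at 1 month, 0.57 at 1 week) and Tpsb2 (-0.63 at 1 month, 0.27 at 1 week). The same held for Slc7a8 (-1.21 at 1 month, 1.34 at 1 week), an amino acid transporter at low signal, Thbd (-0.95 at 1 month, 0.47 at 1 week), Gstm5 (-0.59 at 1 month, 0.43 at 1 week), Col1a2 (-0.67 at 1 month, 0.10 at 1 week) and Msln (-0.73 at 1 month, 0.34 at 1 week). Pdk4 (0.61 at 1 month, -0.18 at 1 week) and Cela1 (0.59 at 1 month, -6.0 at 1 week) were higher at 1 month and below 0 at 1 week, where Cela1, a pancreatic elastase, is read from a control pool that holds pancreas RNA.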

How the results depend on the processing

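Each group at 1 month was 1 pool, so the counts of calls describe these pools and depend on the rule. Against 231 higher and 309 lower (540), no filter on low signals gave 882 higher and 1220 lower (2102), a filter at the 60th percentile 139 and 113 (252), a pseudocount of 16 gave 127 and 130 (257), a 1.3-fold minimum 633 and 841 (1474) and a 2-fold minimum 46 and 53 (99). The share of higher calls was 42.8%, and 55.2% with the stricter filter. Without 1 chip number the counts ranged from 925 to 1066 in all, 372 to 464 higher and 553 to 602 lower, since 1 difference then makes the call. Chip numbers follow the sets in which chips were scaled but mark no shared rats (deviations of same-numbered chips correlated at 0.14 in the 2 pools), and the replicate block, asking only same-numbered chips for one sign, gave 237 higher and 317 lower (554).

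Over both durations, against 27, each chip centred on its median gave 14 and eBayes without a trend 3. Leaving out 1 chip number gave 9 to 14. The replicate block with the pool as a random effect gave 160, with technical chips taken as units. Leaving out the 2 pools with pancreas RNA, chosen after seeing the data, gave 8. This took out the control pool of 1 week and so changed the contrast. The cause of these shifts was not tested. Of probe sets called higher, 79.1% were above 0 at 1 week with the stricter filter, and 56.2% to 64.2% without 1 chip number, while those called lower gave 45.2% to 51.8%. None of the 84 named genes with a call changed sign under the 5 alternatives run. A call already asks that both 5% CR chips lie on the same side of both control chips. Leaving out a chip number or adding the pseudocount therefore could not reverse a called gene, and only the other scalings could have. Of 48 list medians 13 changed sign in some alternative, all of them between -0.18 and 0.53, and those of the clock, smooth muscle, macrophage and complement lists were not among them. Signals near the filter limit the calls of dim genes such as Tef, Usp2, Pdgfrb, Cish and Pik3r1.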
